A study of Mus musculus with 16 samples.

Results

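The 10 genes of antiviral defence described here were measured across 4 groups of mouse small intestine: the Schlafen genes Slfn1, Slfn2, Slfn5, Slfn8 and Slfn9, the interferon-induced transmembrane genes Ifitm1, Ifitm2 and Ifitm3, and Bst2 and Phf11d. These 10 genes, of 37620 in the files, were chosen from these same data because they stood higher with methionine supplementation in unirradiated mice. Their values in that comparison are therefore a description, and only diet at 8.5 Gy is compared in libraries that the choice did not use. All 10 passed the filter on low counts, which left 16558 genes.

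RNA was sequenced from the proximal jejunum, the upper middle stretch of the small intestine. The animals were 8-week-old males of CBA/J, an inbred mouse strain. Each of the 4 groups held 4 libraries: a methionine adequate diet with 0 Gy, the same diet with 8.5 Gy of gamma rays, a methionine supplemented diet (300%) with 0 Gy, and the supplemented diet with 8.5 Gy. The design text names a period of 6 days without saying what it spans, and no label ties a library to an animal, so p-values measure the spread between libraries.

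Interferons are secreted alarm proteins of viral infection. Their receptors act through the kinases Jak1 and Tyk2 on transcription factors such as Stat2, which with Irf9 binds a DNA element called ISRE in the promoters of target genes. A different element, called GAS, is best known from the response to interferon gamma. Schlafen proteins are known for restraining the growth of immune cells and for blocking viral protein synthesis, Ifitm proteins sit in cell and endosome membranes and hinder the fusion of viruses, and Bst2, also called tetherin, holds budding viruses at the cell surface. In the intestine such genes are used by epithelial cells as well as by immune cells.

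The genes lie in clusters of relatives. In RefSeq order on GRCm38.p6, chromosome 11 holds Slfn5, Slfn9, Slfn8, the pseudogene Slfn10-ps, Slfn2, Slfn1, Slfn4, Slfn3 and Slfn14 in a row. Ifitm2, Ifitm1 and Ifitm3 stand between Ifitm5 and Ifitm6 on chromosome 7, Phf11d stands between Phf11b and Phf11c on chromosome 14, and Bst2 is on chromosome 8. An ISRE core, that is GAAA, any 2 bases and GAAA on either strand, was matched in the 300 bases around a RefSeq start site of 6 of 10 members and of 3.99% of all 27025 genes with a window. The sites below show how these matches differ between members, with the match in capitals, printed along the gene's own strand.
Slfn5: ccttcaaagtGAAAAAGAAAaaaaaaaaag
Slfn8: atttgagcagTTTCGTTTTCcccaaaagca
Slfn9: atccgagcagTTTCGTTTTCccaaaaacaa
Ifitm2: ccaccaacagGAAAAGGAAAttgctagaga
Ifitm3: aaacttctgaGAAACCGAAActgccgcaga
Bst2: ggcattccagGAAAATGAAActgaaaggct

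On GRCm38.p6 the Slfn5 site lies at chr11:82951937-82951966 on the plus strand, and its capitals start 155 bases before the start site. The Slfn8 and Slfn9 sites lie at chr11:83020839-83020868 and chr11:82991856-82991885 on the minus strand, and both read the motif on the opposite strand with the same 10 capital letters. The Ifitm2 site lies at chr7:140955988-140956017 on the minus strand, starting 46 bases before the start site. The Ifitm3 site lies at chr7:141010706-141010735 on the minus strand, inside the transcript from base 20 after its start, and another ISRE core match starts at base 3. The Bst2 site lies at chr8:71537583-71537612 on the minus strand, starting 130 bases before the start site, with an overlapping match at 124 bases before it. Ifitm3 and Bst2 also held a GAS core, TTCNNNGAA, which overlapped an ISRE core match in each. That core was in the windows of 9.55% of genes. The windows of Slfn1, Slfn2, Ifitm1 and Phf11d held neither core, which says only that these letters are not in those windows. Among relatives with a window, Phf11a and Phf11b held an ISRE core, Ifitm6 a GAS core, and the others neither. Slfn8 and Slfn9 are close relatives, so their matches are not separate observations. A letter match is not a measured binding site.

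Libraries held between 2.57 and 15.51 M (mega) counts, and 3 of them, in 3 different groups, held under 4 M. Small nucleolar RNAs took 2.93 to 5.05% of counts without irradiation and 7.18 to 14.1% with it. The fourth replicate of the irradiated adequate group stood apart from its group. In CPM, which are counts scaled to a common library total, its 10 fibroblast markers summed to 2323 in a group whose median was 1253, its 10 epithelial markers were the lowest of the group at 6628 CPM, and its 10 crypt stem cell markers the highest at 1462 CPM. Results that rest on it are given with and without it. In whole tissue, fewer cells of a type and less RNA per cell cannot be told apart.

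Levels of different genes were compared within a group in TPM, RSEM's measure of transcript share, which allows for gene length. Ifitm3 and Bst2 stood highest in the unirradiated groups, at 22.7 ± 5.99 and 20.9 ± 2.43 TPM on the adequate diet (mean ± SD, n = 4, here and below), where their ranges overlapped. On the supplemented diet they stood at 81.1 ± 6.35 and 49 ± 8.60 TPM, with ranges that did not overlap. Ifitm2 came next in both, at 11.4 ± 1.26 and 13.8 ± 1.57 TPM. Among the Schlafen genes, the order on the adequate diet was Slfn2 (4.32 ± 0.327 TPM), Slfn5 (3.12 ± 0.359 TPM), Slfn9 (2.08 ± 0.221 TPM) and Slfn8 (0.540 ± 0.0887 TPM), with no overlap between neighbours. On the supplemented diet Slfn5 (11 ± 2.05 TPM) came before Slfn2 (8.20 ± 1.23 TPM), but their ranges overlapped. Ifitm1 had 3.16 ± 0.630 and 4.76 ± 1.26 TPM on the adequate and the supplemented diet, and Phf11d had 1.53 ± 0.547 and 5.82 ± 1.20 TPM. Slfn1 was the lowest member in all 4 groups, with at most 18 counts in any library, so its values carry the largest counting error of the 10.

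In both irradiated groups the means fell in a single order, Ifitm3, Ifitm2, Bst2, Ifitm1, Slfn2, Slfn5, Slfn9, Phf11d, Slfn8 and Slfn1. It is an order of means alone for many neighbours. Ranges of Bst2 and Ifitm1, of Slfn2, Slfn5 and Slfn9, and of Phf11d and Slfn8 overlapped in both groups. Ifitm2 stood before Bst2 there, at 7.38 ± 1.52 against 5.32 ± 3.17 TPM on the adequate diet, where their ranges overlapped, and at 6.96 ± 0.593 against 4.74 ± 1.49 TPM on the supplemented diet, where they also overlapped. Small nucleolar RNAs held 32.0 to 50.7% of all TPM without and 50.5 to 66.3% with irradiation. Changes in log2(TPM + 1) between doses are therefore read only relative to the median of all genes. The added 1 shrinks changes of genes at low TPM more than of others, and so the median. A value relative to the median thus also depends on a gene's level. Groups are compared below in CPM on library totals scaled by TMM, which sets the bulk of the genes level between libraries.

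In unirradiated mice, the comparison that named the genes, the supplemented group stood above the adequate group for 8 of 10 members with no overlap between libraries, and Ifitm1 and Ifitm2 overlapped. Across all tested genes, 4.71% lay higher and 4.43% lower in this way. edgeR called 4 of the 10 members higher (Slfn2, Slfn5, Ifitm3 and Phf11d) and 0 lower, and 0.169% of all genes higher and 0.0302% lower, but since the genes were picked on this contrast nothing is read from either count. The median log2 fold change was 1.26 for the members and -0.01 for all genes.

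Slfn5 stood at 27.2, 25, 31.1 and 26.3 CPM in replicates 1 to 4 of the adequate group and at 104, 111, 108 and 65.1 CPM in the supplemented group. Even its lowest supplemented library was above every adequate one, and the fitted difference was 1.82 ± 0.31 (log2 fold change ± SE). Slfn2, known for holding T cells in a resting state, stood at 18, 19.0, 20.6 and 18.9 CPM on the adequate and at 38.1, 39.2, 37.7 and 29.5 CPM on the supplemented diet (0.91 ± 0.14). The fourth supplemented library was again the lowest of its group. Slfn9 ranged from 22.0 to 29.1 CPM on the adequate and from 32.6 to 52.5 CPM on the supplemented diet (0.78 ± 0.21). Slfn8, its close relative, ranged from 3.45 to 5.88 CPM and from 9.19 to 15.7 CPM (1.28 ± 0.26). Slfn1 had 0, 6, 5 and 4 counts on the adequate and 7, 16, 15 and 8 counts on the supplemented diet, which left a wide error (1.42 ± 0.49).

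Ifitm3, the family member best known for blocking influenza virus, stood at 33.4, 30.7, 51.6 and 41.1 CPM on the adequate diet and at 135, 151, 162 and 114 CPM on the supplemented diet (1.84 ± 0.28). Its groups were separated by more than the whole range of the adequate group. Its neighbour Ifitm2 ranged from 17.6 to 20.9 CPM and from 20.5 to 24.8 CPM (0.27 ± 0.14), and Ifitm1 from 3.83 to 6.36 CPM and from 4.50 to 10.3 CPM (0.55 ± 0.27). Libraries of Ifitm1 and Ifitm2 overlapped between the diets, and those of Ifitm3 did not. Bst2 stood at 41.0, 38.1, 46.7 and 38.1 CPM on the adequate and at 102, 112, 99.2 and 71.7 CPM on the supplemented diet (1.23 ± 0.28). Phf11d, which encodes a protein with a PHD zinc finger, stood at 6.52, 8.48, 12.6 and 8.08 CPM and at 36.0, 37.1, 32.1 and 20.6 CPM (1.78 ± 0.33). Both genes had all supplemented libraries above all adequate ones, with the fourth supplemented library lowest.

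Beside these values, 9 of 10 B and plasma cell markers that the files hold summed to 226 to 466 CPM on the adequate and 181 to 400 CPM on the supplemented diet. The 15 T cell markers summed to 48.5 to 57.7 and 48.4 to 63.6 CPM, and 8 of 9 markers of plasmacytoid dendritic cells, a main source of interferon, to 85.9 to 99.3 and 85.3 to 107 CPM. These immune sums overlapped between the diets. The 15 myeloid markers summed to 192 to 262 and 194 to 312 CPM, with S100a9 at 0 in the adequate group. Fibroblast markers (856 to 1236 and 1203 to 1726 CPM) overlapped as well, while crypt stem cell markers (396 to 443 and 445 to 629 CPM) did not. Their part in the members' values was not tested.

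**Figure D1:**
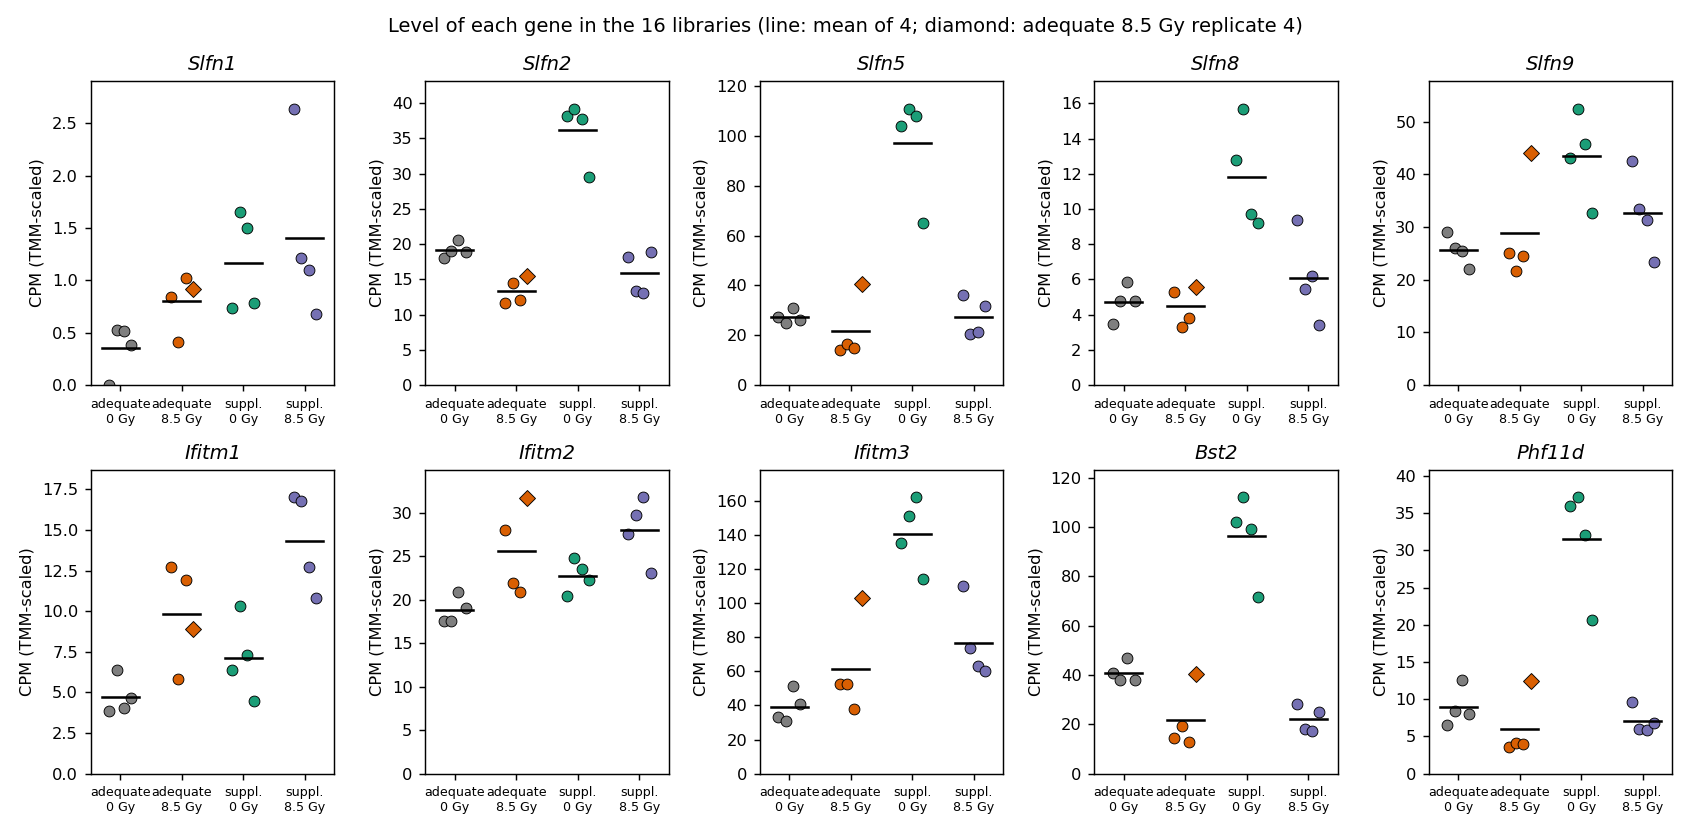
CPM of each of the 10 genes (y axis, TMM-scaled, from 0) in the 16 libraries of the 4 groups (x axis), with a line at each group's mean of 4 and a diamond for the fourth irradiated adequate library. The unirradiated supplemented libraries of Bst2, at 71.7 to 112 CPM, stand above all others, and the diamond, at 40.6 CPM, stands above the other 3 irradiated adequate libraries.

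The effect of diet in irradiated mice was measured in libraries that played no part in naming the genes. No member differed between the diets at 8.5 Gy by edgeR's quasi-likelihood test, and the groups overlapped for every member, while 1.44% of all genes lay higher and 1.7% lower without overlap. Of the 10 estimates 9 were above 0 and 1 was below, with a median of 0.26 for the 10 members and 0 for all genes. Among all genes 8264 estimates were above 0 and 8289 below. Several members varied closely together, so the signs are not 10 separate observations. The adjusted p was between 0.937 and 1 for the members. Of all 16558 genes 0 were called (0%), with 871 genes (5.26%) and 0 members at an unadjusted p under 0.05. limma voom called 0 genes, and DESeq2 called 9 genes and 0 members.

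Ifitm3 stood at 52.5, 52.7, 38.0 and 103 CPM in the irradiated adequate libraries and at 110, 73.9, 63.1 and 60.4 CPM in the irradiated supplemented ones. The first 3 adequate libraries lay below every supplemented one and the fourth below the highest alone, and the difference was 0.31 ± 0.27 (95% interval -0.28 to 0.89). Bst2 stood at 14.6, 19.5, 13 and 40.6 CPM and at 28.2, 18.2, 17.4 and 25.2 CPM, a difference of -0.02 ± 0.29 (-0.66 to 0.62) that took the other sign with DESeq2 (0.01) and limma voom (0.06). The adequate group held both the lowest and the highest Bst2 value of the 8 libraries. Slfn5 stood at 14.1, 16.6, 14.8 and 40.7 CPM and at 36.1, 20.5, 21.5 and 31.9 CPM (0.29 ± 0.31, -0.38 to 0.96). Phf11d stood at 3.59, 4.15, 3.99 and 12.4 CPM and at 9.68, 5.98, 5.85 and 6.79 CPM (0.09 ± 0.36, -0.70 to 0.87). For Slfn5 and Phf11d, 3 of the 4 adequate libraries lay below every supplemented one, and the fourth replicate lay above them all.

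The narrowest intervals belonged to Ifitm2 (0.12 ± 0.14, -0.18 to 0.41) and Slfn2 (0.23 ± 0.15, -0.09 to 0.56). Slfn9 (0.14 ± 0.21, -0.33 to 0.61) and Slfn8 (0.32 ± 0.27, -0.28 to 0.91) left room for larger differences in either direction. Ifitm1 had 12.7, 5.81, 11.9 and 8.91 CPM on the adequate and 17.0, 16.8, 12.7 and 10.8 CPM on the supplemented diet (0.48 ± 0.25, -0.07 to 1.03). Slfn1 had the widest interval (0.52 ± 0.45, -0.46 to 1.5), on 1 to 18 counts per library. None of these intervals left out 0, and a p above the threshold does not show that the diets were alike. On log2(TPM + 1), where the median of all genes was -0.08, Ifitm2 lay 0.02 above that median.

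Without the fourth irradiated adequate library the median of the members was 0.48 and that of all genes 0.02. Slfn5 then differed by 0.84, Phf11d by 0.81, Ifitm3 by 0.68 and Bst2 by 0.52, the last with a changed sign, and still 0 members were called. The first irradiated supplemented library had the lowest epithelial (6699 CPM) and highest myeloid (473 CPM) sum of its group. Leaving it out instead moved estimates down, to 0.09 for Ifitm3, 0.12 for Slfn8, 0.01 for Slfn9, 0.22 for Slfn1 and -0.05 for Phf11d. The direction of the shift thus depended on the library left out. B and plasma cell markers summed to 70.1 to 117 CPM on the adequate and 121 to 168 CPM on the supplemented diet at 8.5 Gy, without overlap. Myeloid markers summed to 249 to 361 and 326 to 473 CPM and fibroblast markers to 1036 to 2323 and 1690 to 2269 CPM, with overlap. Their part in the members' estimates was not tested.

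**Figure D2:**
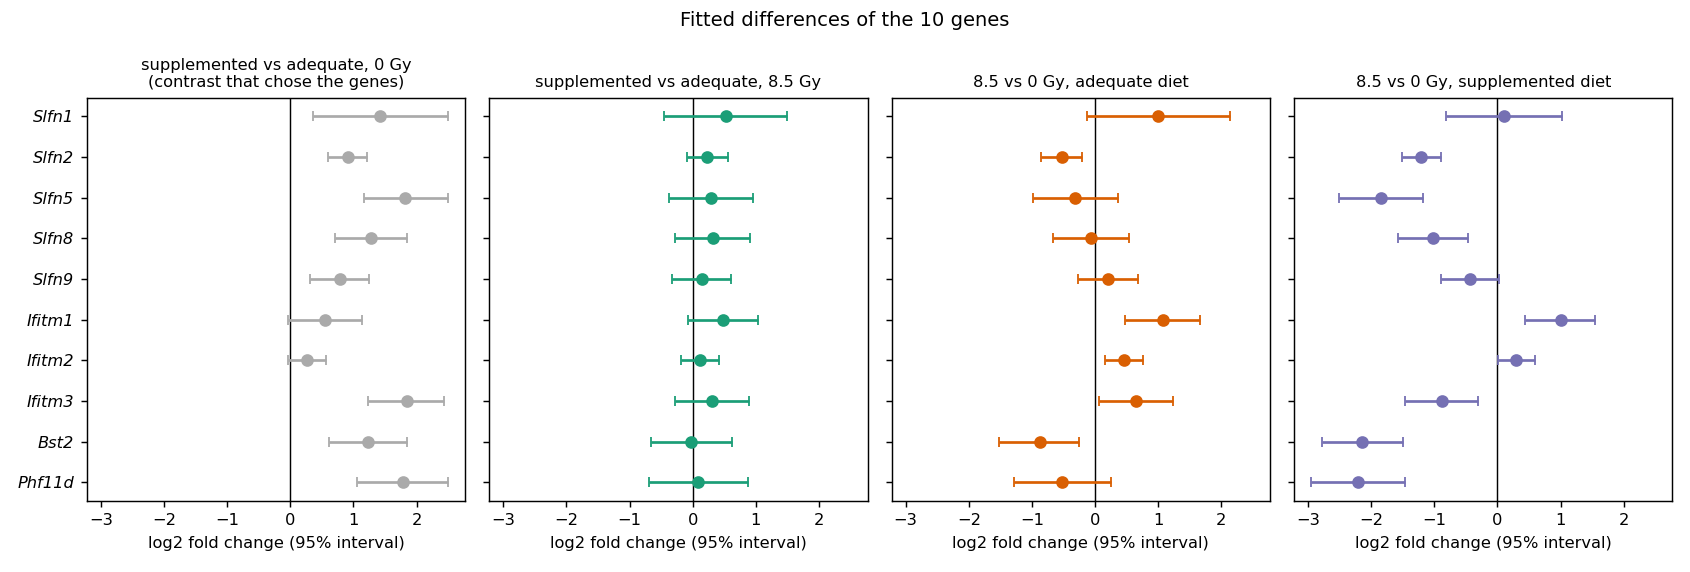
Fitted log2 fold change of each gene (x axis) with its 95% interval (bars) in 4 comparisons of 4 against 4 libraries, with the comparison that named the genes in grey. At 8.5 Gy every interval for diet holds 0, while the intervals for radiation on the adequate diet lie below 0 for Slfn2 and Bst2 and above 0 for Ifitm1, Ifitm2 and Ifitm3.

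With radiation on the adequate diet 1 member fell and 2 rose. Slfn2 fell, to 13.4 ± 1.87 from 19.1 ± 1.08 CPM (edgeR, with Benjamini-Hochberg adjustment). Ifitm1 and Ifitm2 rose, to 9.82 ± 3.12 from 4.72 ± 1.15 CPM and to 25.7 ± 5.10 from 18.8 ± 1.58 CPM (same test). On log2(TPM + 1) Ifitm2 lay 0.03 above the median of all genes, which does not settle its rise because the added 1 shrinks that median. The other 7 did not pass the test. These counts, 2 of 10 higher and 1 of 10 lower, stand beside 7.13% of all genes higher and 6.58% lower. The median log2 fold change was 0.07 for the members and 0.01 for all genes. The unirradiated adequate libraries used here are also the lower arm of the comparison that named the genes. A choice of genes that are low there leans their estimates for radiation upward, so the 2 rises are a description, whereas a fall goes against that lean.

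Slfn2 had 11.6, 14.5, 12 and 15.4 CPM with irradiation, and the highest of these was below the lowest unirradiated value of 18 CPM. The log2 fold change was -0.53 ± 0.15 (adjusted p = 0.0246), and 10.1% of all genes lay lower and 9.34% higher without overlap. Slfn2 was the only member whose groups did not overlap in this comparison. Ifitm1 rose by 1.07 ± 0.27 (adjusted p = 0.0154), although its second irradiated library, at 5.81 CPM, lay below the highest unirradiated one, at 6.36 CPM. Its fold change was 2.10, the largest of the 10. Ifitm2 had 28.1, 22.0, 20.9 and 31.7 CPM with irradiation (0.46 ± 0.14, adjusted p = 0.0396), and its lowest value equalled the highest unirradiated one. The 3 calls depended on single libraries. That of Ifitm1 was lost without the first irradiated library (0.93 ± 0.29, adjusted p = 0.0623), and on log2(TPM + 1) it lay 0.63 above the median of all genes. That of Slfn2 was lost without unirradiated replicate 2 or 3 or irradiated replicate 1 or 3 (-0.46 to -0.54, adjusted p = 0.0536 to 0.0902), though every estimate stayed below 0. That of Ifitm2 was lost without unirradiated replicate 1, 2 or 4 or irradiated replicate 1 or 4 (0.33 to 0.46, adjusted p = 0.0727 to 0.118).

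Bst2 was at 38.1 CPM or more in every unirradiated library and at 19.5 CPM or less in 3 of the 4 irradiated ones, while the fourth irradiated library had 40.6 CPM. The log2 fold change was -0.88 ± 0.29 (adjusted p = 0.0565), which did not pass the test. Without that library it was -1.43 ± 0.20 (adjusted p = 0.00031). Slfn5 and Phf11d had the same shape, with 3 irradiated libraries at 14.1 to 16.6 CPM and 3.59 to 4.15 CPM, below all unirradiated ones, and the fourth at 40.7 and 12.4 CPM. Their log2 fold changes were -0.31 ± 0.31 (adjusted p = 0.545) and -0.52 ± 0.36 (adjusted p = 0.361) with all libraries. Without the fourth they were -0.87 ± 0.22 (adjusted p = 0.0145) and -1.25 ± 0.27 (adjusted p = 0.00645).

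Leaving that library out gave 4 of 10 members lower (Slfn2, Slfn5, Bst2 and Phf11d) and 1 of 10 higher (Ifitm1), beside 7.16% of all genes lower and 7.57% higher. That library was chosen after its values were seen. It was the highest of its group for the 4 lower members, so leaving it out lowers their estimates. Counts and p-values without it are therefore a description. Among the members that did not pass in either fit, Ifitm3 was at 0.65 ± 0.27 with all libraries (adjusted p = 0.123) and at 0.27 ± 0.22 without the fourth. Slfn9 was at 0.21 ± 0.22 (adjusted p = 0.570) and took the other sign without it (-0.08). Slfn8 was at -0.06 ± 0.28 (adjusted p = 0.917). Slfn1 was at 1 ± 0.52 (adjusted p = 0.209), on 1 to 11 counts in the irradiated and 0 to 6 in the unirradiated libraries. On log2(TPM + 1) Ifitm3 lay 0.14 and Slfn9 0.06 above the median of all genes.

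B and plasma cell markers summed to 70.1 to 117 CPM in the irradiated and 226 to 466 CPM in the unirradiated adequate libraries, and T cell markers to 38.4 to 46.4 and 48.5 to 57.7 CPM. Both sums were lower in every irradiated library. Crypt stem cell markers summed to 697 to 1462 CPM with and 396 to 443 CPM without irradiation, also without overlap. Plasmacytoid dendritic cell markers (80 to 116 and 85.9 to 99.3 CPM) overlapped in sum, but Siglech, a defining receptor of these cells, fell (-3 ± 0.44, adjusted p = 0.000444) and Klk1 rose (0.62 ± 0.14, adjusted p = 0.00709). The other 6 of the 8 tested did not pass. Between the diets Siglech was at 0.30 ± 0.33 without and -0.35 ± 0.54 with irradiation, neither past the test. Of 13 tested myeloid markers 4 rose and 3 fell with radiation, beside 7.13% of all genes higher and 6.58% lower. In the fourth irradiated library the plasmacytoid, myeloid (361 CPM) and endothelial (257 CPM) sums were the highest of its group. Their part in the members' differences was not tested.

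Radiation on the supplemented diet uses the unirradiated supplemented libraries, in which the members had been picked as high, so these values are a description and nothing is supported with them. Estimates were below 0 for 7 of 10 members, with 6 called lower and Ifitm1 called higher, beside 7.21% of all genes lower and 8.03% higher. Bst2 was at 28.2, 18.2, 17.4 and 25.2 CPM with irradiation, against 71.7 CPM or more without (log2 -2.14 ± 0.29). Phf11d (-2.21 ± 0.34), Slfn5 (-1.84 ± 0.30), Slfn2 (-1.21 ± 0.14) and Ifitm3 (-0.88 ± 0.27) likewise had all irradiated libraries below all unirradiated ones, while for Slfn8 (-1.02 ± 0.26) 1 irradiated library reached into the unirradiated range. Slfn9 was at -0.43 ± 0.21.

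Ifitm1 went the other way. It had 17.0, 16.8, 12.7 and 10.8 CPM with and 6.38, 10.3, 7.29 and 4.50 CPM without irradiation (1 ± 0.25), and its lowest irradiated library was above its highest unirradiated one. Of all genes 9.43% lay higher and 9.23% lower without overlap on this diet, beside 1 and 5 members. Ifitm2 was at 0.30 ± 0.14, with the other sign relative to the median on log2(TPM + 1) (-0.19). Slfn1 was at 0.10 ± 0.43, with the other sign with total counts alone (-0.08). On log2(TPM + 1) Slfn1 lay 0.57 above the median. At a mean of 0.225 TPM in the unirradiated supplemented group it could not have fallen below that median, so nothing is read from this value. The estimates of Ifitm1 for radiation were 1.07 on the adequate and 1 on the supplemented diet.

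The difference between these responses, radiation on the supplemented minus radiation on the adequate diet, contains the comparison that named the genes and is given without a p. All 10 estimates were below 0. Phf11d (-1.69 ± 0.49), Slfn5 (-1.53 ± 0.43), Ifitm3 (-1.53 ± 0.38) and Bst2 (-1.25 ± 0.41) were farthest from 0, and Slfn8 (-0.96 ± 0.38), Slfn1 (-0.90 ± 0.66), Slfn2 (-0.67 ± 0.20) and Slfn9 (-0.64 ± 0.30) followed. Ifitm2 (-0.15 ± 0.20) and Ifitm1 (-0.07 ± 0.37) lay within 1 SE of 0. edgeR called 0 of 16558 genes (0%) for this difference, with 738 (4.46%) at an unadjusted p under 0.05. limma voom called 0 and DESeq2 1, which was not a member. Without the fourth irradiated adequate library the estimates were -0.97 for Phf11d, -0.98 for Slfn5, -1.15 for Ifitm3 and -0.71 for Bst2.

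The scale of the values mattered for radiation. On log2(TPM + 1) the median of all genes shifted by -0.61 with radiation on the adequate diet and by -0.71 on the supplemented diet, and with total counts alone by -0.18 and -0.19. Relative to that median, Bst2 lay at -1.29 on the adequate and -2.44 on the supplemented diet, Slfn2 at -0.52 and -1.18, and Ifitm1 at 0.63 and 0.49. The signs of these 3 were therefore those of the TMM-scaled fit. Ifitm2 lay at 0.03 and -0.19. Since the added 1 shrinks changes at low TPM, and with them the median, these values do not show whether Ifitm2 rose. Slfn8 lay at 0.32 and -0.19, the first with another sign than in the TMM-scaled fit. At a mean of 0.54 TPM in the unirradiated adequate group it could hardly have fallen below the median. The first value therefore says nothing on the sign of the fit.

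**Figure D3:**
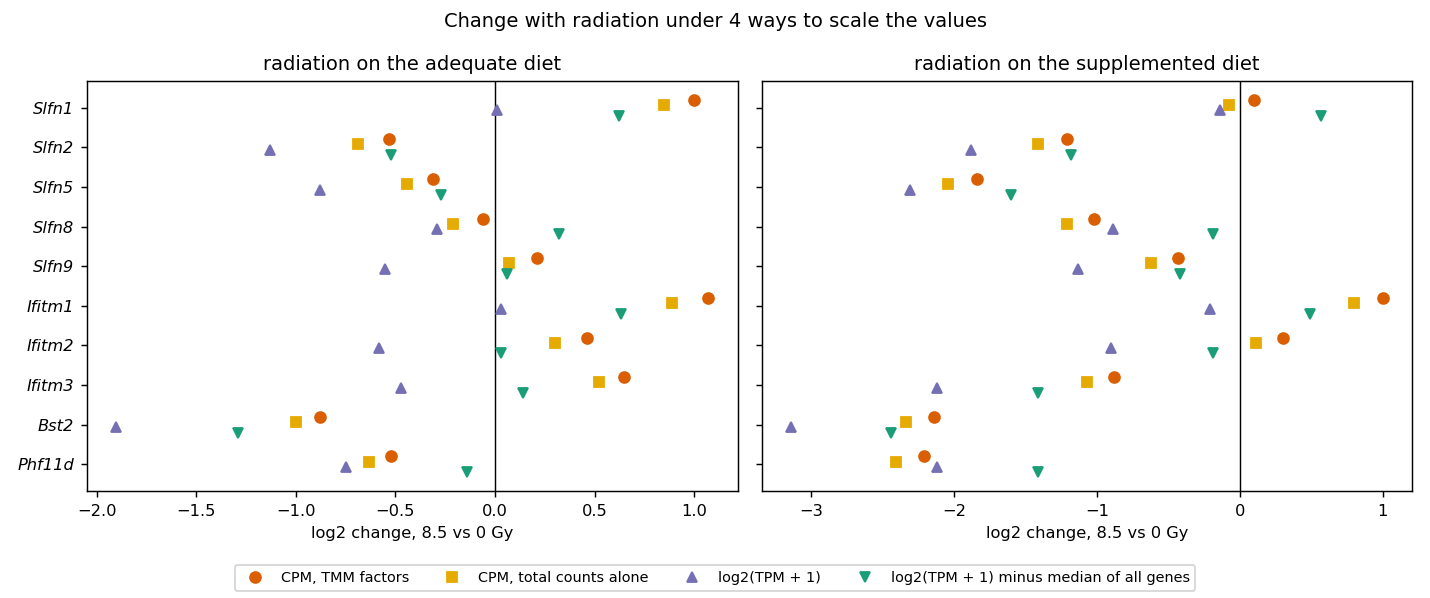
Log2 change of each gene with radiation (x axis) on the adequate diet (left) and the supplemented diet (right) under 4 ways to scale the values. Each compares 4 libraries with 4. The CPM points are fold changes from edgeR fits, and the log2(TPM + 1) points are differences of group means. Bst2 and Slfn2 lie below 0 under all 4 on both diets, while Ifitm2 and Ifitm3 on the adequate diet lie at 0.46 and 0.65 in the TMM-scaled fit. The log2(TPM + 1) points include the shift of all genes by -0.61 and -0.71, and relative to it Ifitm2 and Ifitm3 lie at 0.03 and 0.14 on the adequate diet.

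The members did not vary as a single block over the 16 libraries. Slfn2, Slfn5, Bst2 and Phf11d had Pearson correlations of log2 CPM between 0.94 and 0.98 with each other. Ifitm3 stood nearest to Slfn9 (0.85) and Slfn8 (0.84). Ifitm1 correlated with Ifitm2 and with Slfn1 at 0.74 each, and with Bst2 at -0.48. All pairs share the same libraries, group differences and scaling, so these values describe the data and carry no test. A rank by the same measure over 16 libraries gave Enpp4 (0.970), Pnpt1 (0.937), Tut4 (0.930), Ly6e (0.925) and Gbp7 (0.924) as nearest to the mean of the 10 members.

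Nearest to single members were Irgm1 to Slfn5 (0.986), Sp100 to Phf11d (0.980), Rnf213 to Slfn2 (0.971) and Pnpt1 to Ifitm3 (0.959). Irgm1 is a GTPase of defence against intracellular microbes. Ifitm2 was nearest to Wwtr1 (0.934), Slfn8 to Enpp5 (0.924), Slfn9 to Enpp4 (0.923) and Ifitm1 to Rlim (0.922). The nearest gene to Slfn1 was Lrg1 (0.940), with the low counts of Slfn1 behind that value.

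**Figure D4:**
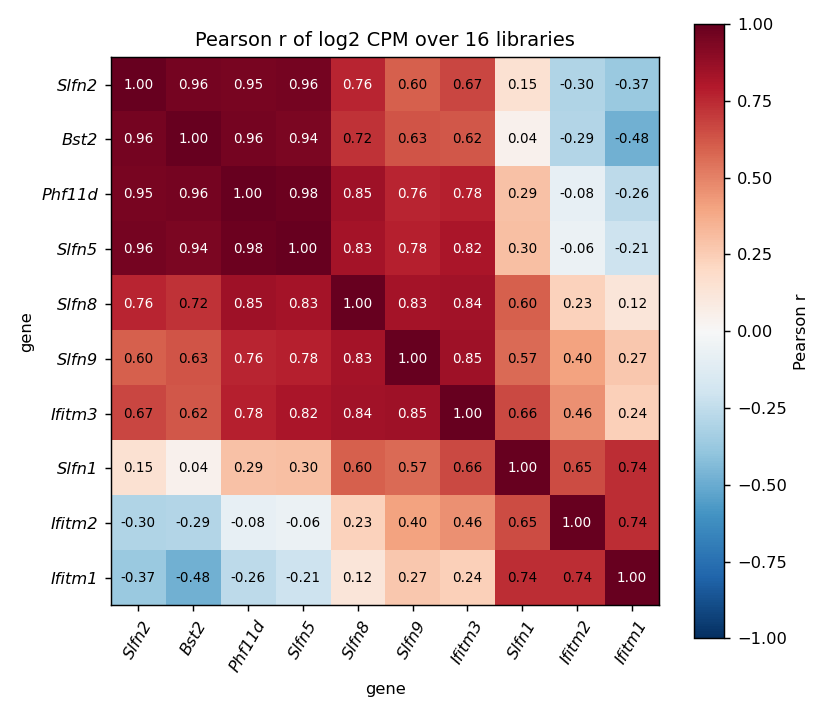
Pearson correlation of log2 CPM over 16 libraries for each pair of the 10 genes (both axes), with colour from -1 (blue) to 1 (red). A block of Slfn2, Bst2, Phf11d and Slfn5 at 0.94 or more stands against Ifitm1 and Ifitm2, whose values with those 4 genes lie at or below -0.06.

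Most of the listed relatives in the same families were too low to test, but not all. In the unirradiated adequate group Slfn4 (0.698 ± 0.11 TPM) and Phf11c (0.7 ± 0.0688 TPM) stood near the member Slfn8 (0.54 ± 0.0887 TPM). Of 13 listed, 12 were in the files and 5 passed the filter: Slfn3, Slfn4, Slfn10-ps, Phf11b and Phf11c. At 8.5 Gy 0 of the 5 differed between diets, with Slfn4 at 0.14 ± 0.29, Slfn3 at 0.18 ± 0.52, Slfn10-ps at 0.05 ± 0.47, Phf11b at 1.05 ± 0.70 and Phf11c at -0.39 ± 0.23. Radiation on the adequate diet lowered Phf11c, from 6.59 ± 0.683 to 4.24 ± 1.17 CPM (-0.70 ± 0.22, adjusted p = 0.0415), and none of the 5 was called higher. Phf11c was thus the 1 called relative of 5, beside 6.58% of all genes lower. Its neighbour on the chromosome, Phf11d, did not pass edgeR's test with all libraries (adjusted p = 0.361). Slfn4 was at -0.26 ± 0.29, Slfn3 at -0.19 ± 0.55, Slfn10-ps at 0.07 ± 0.47 and Phf11b at -0.91 ± 0.71.

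In unirradiated mice Slfn4 had 6.33 ± 0.956 CPM on the adequate and 10.8 ± 3.15 CPM on the supplemented diet, a difference of 0.76 ± 0.27 (adjusted p = 0.267). Phf11b differed by 1.74 ± 0.57 (adjusted p = 0.233), Slfn10-ps by 1.27 ± 0.44 (adjusted p = 0.252), Phf11c by 0.60 ± 0.20 (adjusted p = 0.243) and Slfn3 by 0.44 ± 0.50 (adjusted p = 0.790). All 5 estimates were above 0 and 0 of 5 passed the test. The remaining 7 were too low to test: Slfn14 had 0 counts in the 8 irradiated libraries and at most 2 in any other, Slfnl1 at most 5, Ifitm6 at most 6, and Phf11a at most 11. Ifitm5, Ifitm7 and Ifitm10 reached at most 14, 10 and 6 counts. Among the 7 Ifitm genes looked at, the 3 members alone passed the filter.

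The other interferon genes come from lists written with earlier results of these data known. Of 10 ligands (9 interferons and the cytokine Il6), 9 were in the files and Ifnk alone passed the filter, at 1 to 20 counts per library, with -0.52 ± 0.42 for diet at 8.5 Gy and -0.29 ± 0.41 for radiation on the adequate diet. Of 21 receptors and signalling genes, 0 were called for diet at 8.5 Gy (median -0.01). The 2 with the smallest p were Irf9 (0.26 ± 0.13) and the kinase Tyk2 (-0.22 ± 0.13), both with adjusted p = 0.937. Stat2 and Irf7 were at 0.07 ± 0.14 and -0.05 ± 0.25. Beside 6.58% of all genes lower and 7.13% higher, radiation on the adequate diet lowered 3 of the 21 and raised 0. These were Stat2 (85.0 ± 10.7 to 50 ± 5.67 CPM, -0.77 ± 0.14, adjusted p = 0.00227), Irf7, a factor that amplifies interferon responses (206 ± 27.4 to 109 ± 17.2 CPM, -0.92 ± 0.25, adjusted p = 0.0222), and Irf9 (-0.42 ± 0.13, adjusted p = 0.0394).

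Between the diets at 0 Gy these 3 factors were at 0.78 ± 0.25 for Irf7, 0.64 ± 0.14 for Stat2 and 0.28 ± 0.13 for Irf9, and none of the 3 passed the test (adjusted p = 0.223, 0.0636 and 0.388). With radiation on the supplemented diet they were at -1.74 ± 0.25, -1.34 ± 0.14 and -0.44 ± 0.13. All 3 passed, beside 8 of the 21 listed genes and 7.21% of all genes called lower. The differences between the responses to radiation were -0.82 ± 0.35, -0.58 ± 0.20 and -0.02 ± 0.18. None of these 3 differences was called.

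Of 41 other interferon-stimulated genes, 0 were called for diet at 8.5 Gy (median 0.17), with Rtp4 at 0.48 ± 0.19 (adjusted p = 0.927) and Ifit3b at 0.53 ± 0.32 (adjusted p = 0.937). Radiation on the adequate diet lowered 14 of the 41 and raised 0 (median -0.57), beside 6.58% of all genes lower. The smallest p-values belonged to Ifi27 (46.2 ± 4.67 to 18.7 ± 3.77 CPM, -1.30 ± 0.19, adjusted p = 0.000416) and Xaf1 (36.5 ± 6.45 to 15.2 ± 4.48 CPM, -1.25 ± 0.20, adjusted p = 0.00097). Without the fourth irradiated library 19 of the 41 were lower (median -0.71). On the supplemented diet 41 of 41 were lower with radiation (median -1.64), beside 7.21% of all genes, and at 0 Gy 7 of 41 were higher on the supplemented diet (median 0.98), beside 0.169% of all genes. In the TMM-scaled fit Ifitm1, Ifitm2 and the low-count Slfn1 had estimates above 0 for radiation on both diets. Of these 41 genes 1 had such an estimate on the adequate diet and 0 of 41 on the supplemented diet.

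Some member counts include reads that could belong to a relative. Of all stretches of 40 bases in a gene's GENCODE M21 transcripts, 51.8% of those of Ifitm2 occur in another gene, mostly the predicted gene Gm45717, so Ifitm2 is uncertain. The share was 19.7% for Slfn8 and 16.3% for Slfn9, which share sequence with Slfn10-ps and each other, 14.7% for Ifitm3, 9.96% for Phf11d and 7.79% for Ifitm1. Slfn2 (6.52%), Slfn5 (4.05%) and Slfn1 (1.15%) had less, and Bst2 had 0%. An antisense gene, Slfn5os, overlaps Slfn5, and the strand setting of the counting is not given in the sources used here.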

How the data were processed

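Ribo-Zero took out ribosomal RNA, and a small RNA kit made libraries from the fragmented rest, per the labels' protocols. Per the submitters' processing notes, Bowtie2 2.2.9, RSEM 1.3.0 and edgeR 3.2.4 were used on build NCBIM37; annotation release and strand setting are not given in the sources used here. The deposited files hold RSEM estimated counts (expected counts) and TPM per Ensembl gene, as the file headers name them.

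Symbols for 32897 of 37620 IDs came from GENCODE M21; the 4723 others stayed in the fit and held 4.40 to 8.41% of counts. Expected counts were rounded. With edgeR 4.0.16 in R 4.3.3, genes passing filterByExpr were fitted with 4 group means over 16 libraries, TMM factors and robust quasi-likelihood dispersions. Two-sided F tests were adjusted by Benjamini-Hochberg over 16558 genes and called under 0.05. SEs come from the F statistic. The fit was tested on simulated data. Depth was 2.57 to 15.51 M counts per library, which limits the precision of Slfn1 most. Replicate numbers follow deposit order and pair nothing.

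Members and gene lists were chosen with earlier results of these data known. Named genes are all members, their relatives, Irf7, Irf9 and Stat2, the 2 genes with the smallest p of each pathway list for diet at 8.5 Gy and radiation on the adequate diet, the 5 genes nearest to the members' mean and the nearest to each member (mean log2 CPM of at least 1). Some genes that this rule names are not reported here. The text also names a library that stood apart and the markers Siglech and Klk1, chosen after their values were seen. Alternatives were other scaling factors, no filter, DESeq2 1.42.0, limma 3.58.1 (voom, and log2(TPM + 1) with pseudocount 1), only the compared groups, no libraries under 4 M counts, a threshold of 0.01, and leaving out each library. Promoter windows of 300 bases and gene order are RefSeq's on GRCm38.p6, a later build than the authors'; all 10 members matched.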

Additional observations from a re-analysis of the deposited data

Results flagged for a closer look

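Of 40 sets of 4 libraries checked (10 genes in 4 groups), 5 held a library whose distance to its nearest neighbour, as a share of the range of the set, was above Dixon's critical value for 4 values. Chance flags about 1 set in 20, which is 2 of 40. In the irradiated adequate group the fourth replicate was the highest for Slfn5 (40.7 CPM, the others at 14.1 to 16.6 CPM), Slfn9 (44.0 CPM, the others at 21.6 to 25 CPM) and Phf11d (12.4 CPM, the others at 3.59 to 4.15 CPM). In the unirradiated supplemented group the fourth replicate was the lowest for Slfn2 (29.5 CPM, the others at 37.7 to 39.2 CPM) and Slfn5 (65.1 CPM, the others at 104 to 111 CPM). The irradiated adequate library held 11.44 M counts and the unirradiated supplemented one 9.24 M, so neither was among the 3 libraries under 4 M.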

How the results depend on the processing

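No paired analysis was possible because the labels carry no replicate numbers. For diet at 8.5 Gy, 0 members were called under any setting. DESeq2 called 3 genes higher and 6 lower there, and log2(TPM + 1) 1 lower. Estimates that changed sign were Bst2 with DESeq2 (0.01) and limma voom (0.06), Ifitm2 on log2(TPM + 1) (-0.06, where the median of all genes was -0.08), and Slfn9 (-0.08) and Phf11d (-0.13) without the libraries under 4 M counts. Leaving out single libraries gave 0 to 1 genes higher, -0.22 to 0.52 for Bst2 and -0.13 to 0.81 for Phf11d.

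For radiation on the adequate diet, members called higher were 1 with upper-quartile factors, total counts, no filter, limma voom, only the compared groups or no library under 4 M, and 0 on log2(TPM + 1) or at 0.01. Members called lower were 2 with total counts, DESeq2 or limma voom, 7 on log2(TPM + 1), and 0 at 0.01 or without libraries under 4 M. Genes called were 614 higher and 2258 lower with total counts, 163 and 13230 on log2(TPM + 1), and 485 and 386 at 0.01, and 624 were lower without libraries under 4 M. On log2(TPM + 1), which moved the median of all genes by -0.61, Slfn9 (-0.55), Ifitm2 (-0.58) and Ifitm3 (-0.47) stood below 0 but not below that median. Leaving out single libraries gave 690 to 1273 genes higher and 541 to 1205 lower, 0 to 2 members higher (0 without the first irradiated library), 0 to 4 lower (4 without the fourth), -0.18 to 0.06 for Slfn8 and -0.08 to 0.30 for Slfn9.

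For radiation on the supplemented diet, genes called were 671 higher and 2959 lower with total counts, 89 and 14027 on log2(TPM + 1), and 577 and 465 at 0.01, and 0 members were higher on log2(TPM + 1) and at 0.01. Slfn1 changed sign with total counts (-0.08), on log2(TPM + 1) (-0.14) and without libraries under 4 M (-0.20), as did Ifitm1 (-0.21) and Ifitm2 (-0.90) on log2(TPM + 1), which moved the median of all genes by -0.71. Of these 3, Ifitm2 alone lay below that median, which Slfn1 was too low in TPM to reach. Leaving out single libraries gave 805 to 1821 genes higher, 627 to 1806 lower, 0 to 1 members higher, 5 to 6 lower, and -0.20 to 0.33 for Slfn1.

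For diet at 0 Gy, DESeq2 called 171 genes higher, 63 lower and 7 members higher, the fit of the compared groups alone 111, 28 and 7, and the fit without libraries under 4 M or at 0.01 called 0 of each. Genes called lower were 1 with total counts, 3 with no filter and 11 with limma voom, and log2(TPM + 1) gave 92 higher and 34 lower. Leaving out single libraries gave 0 to 45 genes higher, 0 to 4 lower and 0 to 5 members higher. No member was called higher without adequate replicate 1 or 2, or without supplemented replicate 1, 2 or 3. For the difference between the responses, DESeq2 called 1 gene lower, and leaving out single libraries gave 0 to 2 lower and -0.27 to 0.16 for Ifitm1. The cause of these changes was not tested, except that a threshold of 0.01 can only call fewer genes and that log2(TPM + 1) carries the common shift given above.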
